A study of Mus musculus with 28 samples.

Results

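Islets of 6 mice labelled βKlf6KO and 6 mice labelled control, all given saline, were compared across every gene of the deposited table, which made 12 of the 28 libraries of the series. The βKlf6KO genotype was Klf6flox/flox with Cre recombinase in 1 Ins1 allele, and the control genotype was Klf6flox/flox with intact Ins1 alleles. Both groups therefore carried the floxed Klf6 alleles, and no group with Cre alone or with unfloxed Klf6 was analysed here. Cre from the Ins1 locus acts in β cells, so the other cells of a βKlf6KO islet keep Klf6. All mice were males of 10-12 weeks on a mixed C57Bl6 and 129sv background, and each library came from hand-picked islets of 1 mouse kept overnight in culture. A second pair of groups, 8 mice labelled βKlf6KO and 8 labelled control, received S961, which is a peptide antagonist of the insulin receptor. Those mice are used below to set the saline differences beside a second set of mice. Their libraries also entered the estimate of the spread in the gene-by-gene saline tests, including the fits with 1 saline library left out.

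Klf6 is a zinc finger transcription factor of the KLF family, whose members bind GC-rich and CACCC-type DNA. Pancreatic islets are small endocrine organs in which β cells make insulin, α cells glucagon and δ cells somatostatin, with endothelial cells, stromal cells and macrophages among them. A mature β cell takes up glucose through a transporter, turns its metabolism into an electrical signal and releases insulin from dense granules that were loaded in the endoplasmic reticulum and Golgi. Adult β cells seldom divide.

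Values are CPM, the reads of a gene plus 0.5 scaled to a normalized size of its library, or log2 CPM. That size was 0.936 to 1.091 times the reads over listed genes in the saline libraries. They are not corrected for gene length. The 12 libraries held 30415583 to 43001024 reads over listed genes. The limit that a count of 0 allows was 3 reads (0.0699 to 0.0977 CPM), for counting error only. Labelled control saline replicate 4 stood apart from the other 11 libraries on the first principal component (98.4, against -46.3 to 14.1), and its Ins2 level was the lowest. The libraries held insulin, glucagon and somatostatin RNA, and acinar, duct, stromal and endothelial markers were detected in all 12.

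The labels were not borne out by the targeted gene. Klf6 had a lowest, median and highest level of 103, 119 and 170 CPM in the labelled βKlf6KO libraries and 81.8, 127 and 204 CPM in the labelled control libraries, and the groups overlapped. Its mean was 6.97 ± 0.26 log2 CPM against 7.0 ± 0.42 (SD, n = 6 each), a difference of -0.03 (two-sided exact permutation p = 0.890, where 0.002165 is the smallest p possible). The log2 ratio of Ins1 to Ins2, which would be lower in mice with 1 Ins1 allele replaced, was -1.29 ± 0.27 in the labelled βKlf6KO libraries and -1.63 ± 0.77 in the labelled control libraries (difference 0.34, exact permutation p = 0.357, adjusted over these 2 measures 0.714). Without labelled control replicate 4 the difference in this ratio was 0.57 (exact permutation p = 0.0649). Without labelled control replicate 3 it was 0.20 (exact permutation p = 0.597). Reads per gene do not separate deleted from kept exons. Groups are therefore named by their labels, and every direction below is relative to those labels.

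Between the labelled groups, 378 of 13591 genes passed the limma test at a Benjamini-Hochberg adjusted p below 0.05, which is 2.78% of the genes tested. Of these, 284 (2.09%) were higher and 94 (0.692%) lower in the labelled βKlf6KO libraries. With 1 saline library left out at a time the count ran from 214 to 514, and it moved by over 1.5 times without labelled βKlf6KO replicates 3, 4 or 6 (242, 217 and 214) or labelled control replicates 1, 2, 3 or 6 (214, 230, 243 and 234). At an unadjusted p below 0.05 there were 1953 genes. A fit of the 12 saline libraries alone, without the S961 libraries in the spread, called 467 genes and kept 309 of the 378. A list of 264 cell division genes, chosen with earlier results of these data known, held 109 of the 284 higher calls and none of the lower ones. The proliferation marker Mki67 (chosen after its values were seen) had a lowest, median and highest level of 16.4, 17.6 and 28.4 CPM in the labelled βKlf6KO libraries and 0.874, 1.36 and 5.96 CPM in the labelled control libraries. The remaining 269 calls (1.98% of genes), 175 higher and 94 lower, are described below. After correction for transcript GC content the calls were 785 higher and 586 lower, so 57.3% instead of 75.1% of the calls were higher.

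**Figure D1:**
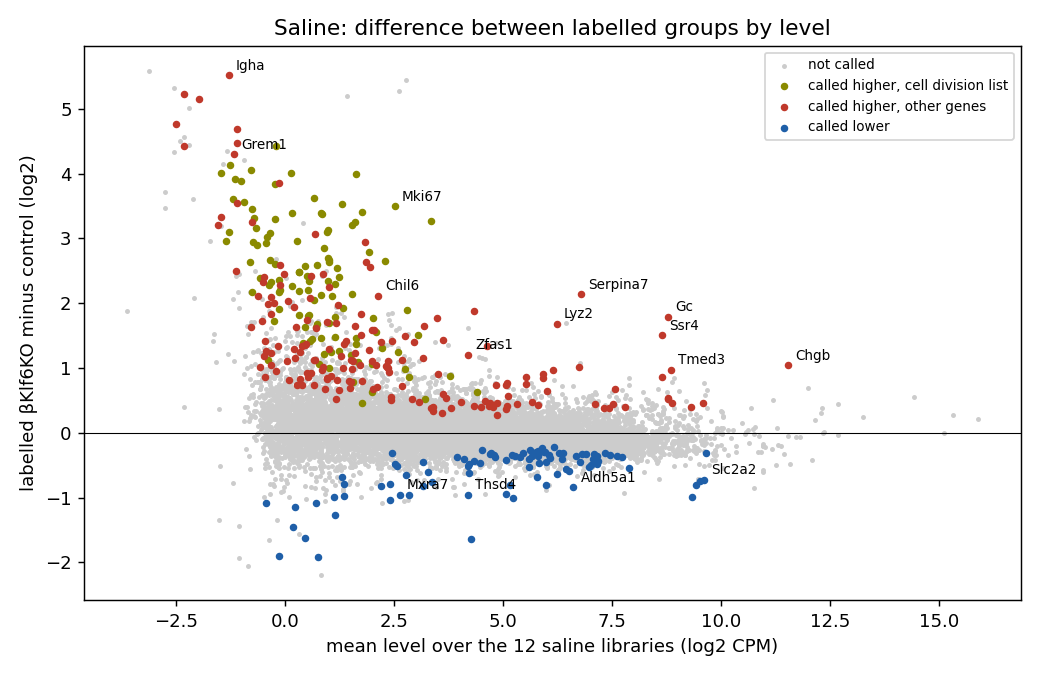
Difference between the labelled groups after saline (log2, labelled βKlf6KO minus control) against the mean level over the 12 saline libraries (log2 CPM), 1 point per gene tested. Of the called genes, 109 are in the cell division list, 175 are other higher genes and 94 are lower genes. The lower calls lie further to the right and closer to 0 than most of the higher calls.

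The lower genes and the other higher genes differed in size and level. The 94 lower genes had a median absolute difference of 0.47 on the log2 scale, and 11 of them differed by at least 2-fold. Their median level in the labelled control group was 54.4 CPM, and 24 of the 94 (25.5%) reached 100 CPM in the higher group, against 14.3% of all genes tested. The 175 other higher genes had a median difference of 1.10, 98 of them differed by at least 2-fold, and their median level in the higher group was 5.98 CPM. Between libraries of the labelled βKlf6KO group the median coefficient of variation was 10.8% for the lower genes and 21.3% for the other higher genes. For 57 of the 94 lower genes every labelled βKlf6KO library lay below every labelled control library, as it did for 1.64% of all genes. For 89 of the 175 other higher genes every labelled βKlf6KO library lay above every control, as for 2.46% of all genes. These shares follow in part from choosing called genes and are a description.

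Promoters of called genes were searched for the sequence types that KLF factors bind, and 4 are printed, those of abundant genes described in detail below (Gc and Chgb higher, Papss2 and Slc2a2 lower). They are from RefSeq on build GRCm38.p6, from 250 bases before to 50 after the annotated start, and run 5′ to 3′ on the strand of the gene. Capitals mark GGGCGG and CACCC on either strand, where the reverse complements read CCGCCC and GGGTG. The Gc promoter (chr5:89457849-89458148, minus strand) held neither, that of Chgb (chr2:132781392-132781691, plus strand) held 2 and 1, that of Papss2 (chr19:32595465-32595764, plus strand) 2 and 1, and that of Slc2a2 (chr3:28697653-28697952, plus strand) 0 and 1.
Gc: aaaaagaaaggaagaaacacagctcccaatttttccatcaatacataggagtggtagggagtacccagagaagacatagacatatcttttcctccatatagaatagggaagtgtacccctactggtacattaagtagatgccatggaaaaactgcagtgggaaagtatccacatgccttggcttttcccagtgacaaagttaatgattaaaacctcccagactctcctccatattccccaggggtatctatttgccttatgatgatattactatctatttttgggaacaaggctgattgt
Chgb: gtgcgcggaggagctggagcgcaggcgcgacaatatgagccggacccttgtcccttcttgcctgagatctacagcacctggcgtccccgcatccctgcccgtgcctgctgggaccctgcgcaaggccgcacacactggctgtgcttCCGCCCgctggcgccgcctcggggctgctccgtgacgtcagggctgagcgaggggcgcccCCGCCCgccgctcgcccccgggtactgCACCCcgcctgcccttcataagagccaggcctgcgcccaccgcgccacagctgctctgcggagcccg
Papss2: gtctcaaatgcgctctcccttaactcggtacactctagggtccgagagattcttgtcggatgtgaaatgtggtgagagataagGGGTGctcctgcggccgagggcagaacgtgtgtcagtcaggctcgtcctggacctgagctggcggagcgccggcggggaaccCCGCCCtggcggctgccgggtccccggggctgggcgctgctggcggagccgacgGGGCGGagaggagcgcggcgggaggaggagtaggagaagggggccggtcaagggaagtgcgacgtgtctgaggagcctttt
Slc2a2: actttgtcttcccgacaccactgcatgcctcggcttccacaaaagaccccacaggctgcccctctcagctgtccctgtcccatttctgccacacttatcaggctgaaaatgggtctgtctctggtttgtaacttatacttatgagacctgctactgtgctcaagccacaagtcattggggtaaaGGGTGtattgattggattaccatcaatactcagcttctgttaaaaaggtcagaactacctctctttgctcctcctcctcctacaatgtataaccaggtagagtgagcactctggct

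Across sets, GGGCGG was present in 62.7% of 67 promoters of lower genes, 40.4% of 136 promoters of other higher genes and 72.2% of 90 promoters of cell division genes, against 64.5% of 10456 promoters of all genes tested. CACCC was present in 68.7%, 55.9% and 53.3%, against 62.9%. CCAAT, searched on both strands, was present in 25.4%, 44.9% and 71.1%, against 38.5%. TTTGAA, the core of the cell cycle homology region, was present in 2.99%, 17.6% and 55.6%, against 11.6%. The lower genes were near the share of all genes for the GC-rich and CACCC types. The median GC content was 64.0%, 55.0% and 58.7%, against 61.0%. A match is a description of these letters, and no match says only that they are not in this window.

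Genes of glucose entry and granule release were among the lower calls. Slc2a2 encodes GLUT2, the glucose transporter of the mouse β cell (ENSMUSG00000027690, GRCm38 chromosome 3, 28697903 to 28731359, plus strand). It had 641, 778, 675, 502, 606 and 500 CPM in labelled βKlf6KO replicates 1 to 6, against 1045, 923, 994, 1037, 1004 and 1052 CPM in labelled control replicates 1 to 6. The groups did not overlap, and the control libraries lay close together. The difference was -0.73 ± 0.19 on the log2 scale (SE, adjusted p = 0.0362). This call held in 1 of the 12 fits that each left out 1 saline library, the one without labelled βKlf6KO replicate 2, and reached an adjusted p of 0.106 without labelled βKlf6KO replicate 6. Of the 19 genes of glucose uptake and coupling it was the 1 called, and the list median was -0.07 against -0.00050 for all genes. Without control replicate 4, the library that stood apart, the list median was -0.29.

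Sytl4 encodes granuphilin, which tethers insulin granules to the plasma membrane (chosen after its values were seen; chromosome X, 133936385 to 133981812, minus strand). Its level was 595, 668, 683, 500, 540 and 436 CPM in labelled βKlf6KO replicates 1 to 6 and 914, 830, 848, 1137, 857 and 1136 CPM in labelled control replicates 1 to 6, without overlap. The difference was -0.75 ± 0.19 (adjusted p = 0.0276, and up to 0.0928 in 6 of the 12 fits with 1 library left out, those without any 1 of βKlf6KO replicates 4, 5 and 6 and control replicates 1, 4 and 6). Mlph, which encodes melanophilin, another Rab27-binding protein, was lower by -0.83 ± 0.16 (adjusted p = 0.00335), with 4.53 to 8.29 CPM against 10.1 to 15.5 CPM. Vamp2, a SNARE protein of the granule membrane, was lower by -0.41 ± 0.10 (adjusted p = 0.0239) and lost its call when βKlf6KO replicate 4 or 6, or control replicate 1 or 6, was left out (adjusted p up to 0.0828). Of 34 granule and exocytosis genes these 3 were lower and 1, Chgb, was higher, with a list median of 0.01, which ran from -0.07 (without control replicate 4) to 0.04 (without βKlf6KO replicate 3).

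GABA, which β cells make from glutamate and release, had genes at both ends of its metabolism among the lower calls. Aldh5a1, succinic semialdehyde dehydrogenase of GABA breakdown (chromosome 13, 24907579 to 24937661, minus strand), had 77.1, 71.9, 70.3, 67.5, 88.5 and 66.8 CPM in labelled βKlf6KO replicates 1 to 6. It had 114, 114, 129, 169, 115 and 155 CPM in labelled control replicates 1 to 6, so the groups did not overlap. The difference was -0.84 ± 0.19 (adjusted p = 0.0132, called in all 12 fits with 1 library left out). Gad1, a glutamate decarboxylase that forms GABA, was lower by -0.64 ± 0.18 (adjusted p = 0.0466), with 48.3 to 83.6 CPM against 75.8 to 107 CPM. It stayed called only without βKlf6KO replicate 1 or control replicate 5 (adjusted p up to 0.140 in the other 10 fits). These were 2 of the 6 GABA metabolism genes tested, and the list median was -0.11 (-0.16 without control replicate 4).

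Among 20 β-cell transcription factors 2 were lower and none was higher, with a list median of -0.16 (-0.08 without control replicate 4). Nkx6-1, a homeodomain factor needed for β-cell identity, had a lowest, median and highest level of 97.2, 118 and 160 CPM in the labelled βKlf6KO libraries, and 148, 170 and 194 CPM in the labelled control libraries. βKlf6KO replicate 2 was the 1 library that overlapped the controls. The difference was -0.48 ± 0.12 (adjusted p = 0.0311), and the call was lost without any 1 of βKlf6KO replicates 1, 3, 4 and 6 and control replicates 1, 2 and 3 (adjusted p up to 0.0930). Tshz1, a zinc finger factor, was lower by -0.56 ± 0.12 (adjusted p = 0.0104, called in all 12 fits). The insulin genes and the other islet hormones showed no call among 8 genes. Iapp, islet amyloid polypeptide, had 0.27 ± 0.18 (SE) and an adjusted p of 0.569 although its groups did not overlap.

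Some lower calls that were in no list encode metabolic enzymes. The list of 16 glycolysis genes held no call and had a median of 0.21 (-0.06 without control replicate 4). Papss2 makes the sulfate donor used to sulfate hormones, proteoglycans and lipids (chromosome 19, 32595790 to 32667187, plus strand). It had 563, 548, 555, 475, 525.9 and 444 CPM in labelled βKlf6KO replicates 1 to 6, against 940, 830, 877, 1134, 736 and 932 CPM in labelled control replicates 1 to 6. No library of one group reached the other, and the difference was -0.80 ± 0.19 (adjusted p = 0.0175, and 0.0523 without βKlf6KO replicate 6). Pfkfb2 sets fructose-2,6-bisphosphate, an activator of glycolysis. It was lower by -0.69 ± 0.14 (adjusted p = 0.00569), with 36.5 to 50.9 CPM against 59.5 to 80.3 CPM. Tigar, a phosphatase that removes the same metabolite, was lower by -0.42 ± 0.09 (adjusted p = 0.00674), and both were called in all 12 fits. Rpia, an isomerase of the pentose phosphate pathway (chosen after its values were seen), was lower by -0.37 ± 0.09 (adjusted p = 0.0240), with 23.1 to 28.2 CPM against 29.8 to 35.5 CPM. Its call was lost without any 1 of βKlf6KO replicates 1, 3 and 6 and control replicates 1, 2, 3 and 6 (adjusted p up to 0.0659).

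Several lower genes encode proteins of the Golgi, endosomes and lysosomes. Slc35b4, a nucleotide sugar transporter of the Golgi, was lower by -0.53 ± 0.11 (adjusted p = 0.00690). Tollip, an endosomal adaptor, was lower by -0.32 ± 0.07 (adjusted p = 0.00760), with 135 to 154 CPM against 169 to 188 CPM. Both were called in all 12 fits. Lamp1, a lysosomal membrane protein, was lower by -0.31 ± 0.08 (adjusted p = 0.0240), with 669 to 759 CPM in labelled βKlf6KO libraries and 823 to 950 CPM in labelled control libraries. Its call was lost in 6 fits, those without any 1 of βKlf6KO replicates 1 and 6 and control replicates 1, 2, 3 and 6 (adjusted p up to 0.0752). It was the 1 call among 24 lysosome and autophagy genes, whose median was 0.18, and -0.01 without control replicate 4. Mcoln3, a cation channel of endosomes, was lower by -0.96 ± 0.25 (adjusted p = 0.0332), with 3.90 to 6.74 CPM against 8.29 to 11.4 CPM. It was the 1 call among 19 other ion channels, and it stayed called in 5 of 12 fits (adjusted p up to 0.0987 without βKlf6KO replicate 6).

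The lower genes with the smallest p outside the lists came from various functions. Mxra7 had 5.26, 3.92, 4.66, 3.69, 4.38 and 5.03 CPM in labelled βKlf6KO replicates 1 to 6 and 10.7, 10.9, 8.65, 6.62, 7.56 and 8.33 CPM in labelled control replicates 1 to 6. Its difference was -0.96 ± 0.14 (adjusted p = 0.000446). Thsd4, a secreted thrombospondin-repeat protein, was lower by -0.96 ± 0.16 (adjusted p = 0.000733), with 11.3 to 15.3 CPM against 18.9 to 30.5 CPM. Neither gene showed any overlap between the groups. Hspa12a, a member of the Hsp70 family, was lower by -0.81 ± 0.15, Fnip2, a folliculin-interacting protein, by -0.54 ± 0.10, and Pard3, a polarity protein, by -0.38 ± 0.08. Tmem206, a proton-activated chloride channel, was lower by -0.45 ± 0.10. Plekhh1, Tmem150c, Cnnm1 and Sowahb were lower by -0.51, -0.44, -0.82 and -0.45. These 10 genes had adjusted p of at most 0.00898 and were called in all 12 fits with 1 library left out.

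Other lower genes were chosen after their values were seen. Ttc28 fell by 1.01 on the log2 scale (adjusted p = 0.0138), with 21.1 to 39.8 CPM against 36.8 to 78.0 CPM, and was called in all 12 fits. Cdk15, a cyclin-dependent kinase, had 0.505 to 0.968 CPM in labelled βKlf6KO libraries and 1.01 to 2.62 CPM in labelled control libraries. Mrap2, an accessory protein of melanocortin and ghrelin receptors, had 0.643 to 1.15 CPM against 1.29 to 2.62 CPM. Both of these low genes were called in all 12 fits, with adjusted p of 0.00277 and 0.00218. The muscarinic receptor Chrm3 (-0.32), the Ras exchange factor Rasgrf1 (-0.44), the vitamin D receptor Vdr (-0.50), the golgins Golga3 (-0.33) and Golga4 (-0.38) and the oxysterol-binding protein Osbp (-0.33) were also called lower. They had adjusted p of 0.0329 to 0.0416 and stayed called in 2 to 5 of the 12 fits (adjusted p up to 0.128). Foxo3, the 1 call among 20 insulin and IGF signalling genes, had -0.26 ± 0.07 (adjusted p = 0.0372) and stayed called in 2 of 12 fits.

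**Figure D2:**
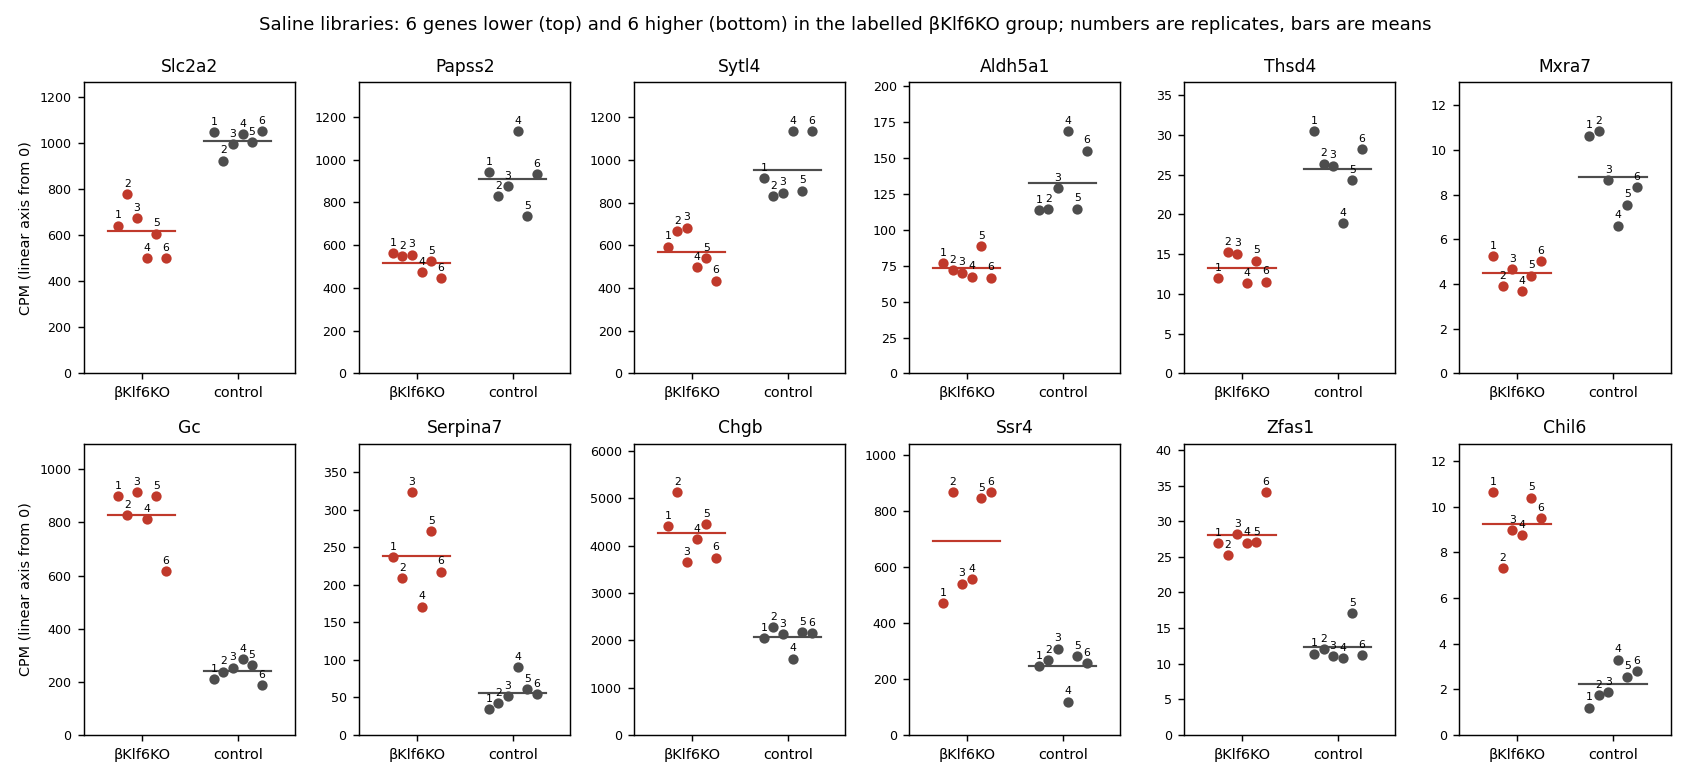
CPM of 6 lower genes (top row) and 6 higher genes (bottom row) in the 6 labelled βKlf6KO and 6 labelled control saline libraries. Points are libraries with their replicate number, bars are group means, and every axis starts at 0. In none of the 12 genes do the groups overlap.

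Abundant genes among the higher calls outside cell division included secreted proteins. Gc is the vitamin D binding protein, a secreted protein that in mouse islets is made mainly by α cells (chromosome 5, 89417522 to 89457898, minus strand). Its level was 899, 828, 914, 814, 900 and 616 CPM in labelled βKlf6KO replicates 1 to 6 and 209, 238, 253, 285, 263 and 189 CPM in labelled control replicates 1 to 6. The lowest βKlf6KO library exceeded the highest control. The difference was 1.79 ± 0.27 (adjusted p = 0.000449, called in all 12 fits). Glucagon and 10 more of the 12 α-cell genes were not called, and the list median was 0.18 (0.11 without βKlf6KO replicate 5 and 0.09 without control replicate 5). Serpina7, thyroxine-binding globulin (chromosome X, 139079257 to 139085236, minus strand), had 171 to 324 CPM, with a median of 227, in labelled βKlf6KO libraries. It had 33.8 to 90.3 CPM, with a median of 52.7, in labelled control libraries, and differed by 2.14 ± 0.38 (adjusted p = 0.00131). It was the 1 call among 11 dedifferentiation and progenitor genes, which had a median of 0.27.

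Chgb is chromogranin B, a granin of the secretory granule core (chromosome 2, 132781278 to 132795079, plus strand). Its level was 4407, 5125, 3657, 4135, 4457 and 3745 CPM in labelled βKlf6KO replicates 1 to 6, against 2043, 2282, 2125, 1611, 2164 and 2142 CPM in labelled control replicates 1 to 6. All βKlf6KO libraries lay well above the controls. The difference was 1.04 ± 0.26 (adjusted p = 0.0253), with the call lost when βKlf6KO replicate 1 or 4, or control replicate 1 or 4, was left out (adjusted p up to 0.0548). It therefore moved against Sytl4 and Vamp2 of the same list.

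Further higher calls encode proteins of the secretory pathway, for which no list was tested. Ssr4, a subunit of the translocon-associated complex, had 470, 867, 540, 558, 846 and 866 CPM in labelled βKlf6KO replicates 1 to 6 and 245, 268, 308, 119, 282 and 257 CPM in labelled control replicates 1 to 6. It differed by 1.5 ± 0.34 (adjusted p = 0.0111). Sec11c, a subunit of the signal peptidase, was higher by 0.68 ± 0.15 (adjusted p = 0.0110). Tmed3, a cargo receptor of vesicles between endoplasmic reticulum and Golgi, was higher by 0.97 ± 0.19 (adjusted p = 0.00322). Prdx4, a peroxiredoxin of the endoplasmic reticulum (chosen after its values were seen), was higher by 0.84 ± 0.17 (adjusted p = 0.00514), with 77.2 to 87.1 CPM against 39.2 to 67.3 CPM. These 4 were called in all 12 fits. Sdf4, a Golgi calcium-binding protein, and Kdelr3, a retrieval receptor for escaped chaperones, were higher by 0.53 and 0.46. Both were chosen after their values were seen and stayed called in 5 and 4 of 12 fits (adjusted p up to 0.125). Of 22 genes of the ER chaperones and unfolded protein response none was called, 17 had a negative difference, and the median was -0.14. Calr, calreticulin, had the smallest p of that list (-0.27 ± 0.09, adjusted p = 0.116).

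Of the cytosolic ribosomal protein genes a few were called higher. All 63 cytosolic ribosomal protein genes tested had a positive difference, with a median of 0.40, and 4 were called. Without control replicate 4, whose mean over the list was 6.04 log2 CPM against 6.98 to 7.37 in the other controls, the median was 0.23. Among the 4 were Rpl35a, Rpl9 and, chosen after its values were seen, Rpl5, with differences of 0.38 to 0.47 and adjusted p of 0.0372 to 0.0470. None of these 3 stayed called in more than 5 of the 12 fits, and ribosomal protein genes have many near-identical pseudogenes, so their counts are uncertain. Rpl9 had 776 to 1173 CPM in labelled βKlf6KO libraries and 615 to 726 CPM in labelled control libraries. With library weights or the first principal component as a covariate the list median was 0.20 or 0.19. Eef1b2, a subunit of the elongation factor eEF1B, was higher by 0.52 ± 0.10 (adjusted p = 0.00284), with 476 to 549 CPM against 324 to 427 CPM. Zfas1, a non-coding RNA that hosts small nucleolar RNAs, had 25.3 to 34.1 CPM against 10.8 to 17.1 CPM and a difference of 1.2 ± 0.23 (adjusted p = 0.00255). Both were called in all 12 fits.

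Respiratory chain genes were listed by genome. Of 59 nuclear genes of the chain 2 were higher, Ndufa1 of complex I by 0.97 ± 0.17 (adjusted p = 0.00131) and Uqcrh of complex III by 0.38 ± 0.10 (adjusted p = 0.0372), with a list median of 0.10 (0.04 without control replicate 4), and 13 of the 59 had a negative difference. Ndufa1 had 90.3 to 120 CPM in labelled βKlf6KO libraries and 39.7 to 54.5 CPM in labelled control libraries. Of the 9 mitochondrially encoded genes tested all had a negative difference, with a median of -0.55. Without control replicate 4, where their mean was 10.7 log2 CPM against 9.27 to 9.62 in the other controls, that median was -0.34. The mitochondrial ribosomal RNA mt-Rnr2 was the 1 called, with 414 to 518 CPM against 674 to 1395 CPM and a difference of -0.99 ± 0.27 (adjusted p = 0.0433). It stayed called in 1 of 12 fits, without control replicate 3. The libraries were made from poly(A) RNA, and the highest mt-Rnr2 value was in control replicate 4, the library that stood apart.

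Further higher genes were called in all 12 fits with 1 library left out. Chil6, a chitinase-like protein, had 7.32 to 10.6 CPM in labelled βKlf6KO libraries and 1.19 to 3.30 CPM in labelled control libraries (2.11 ± 0.29, adjusted p = 0.000446). Dapl1 had 29.5 to 61.1 CPM against 7.64 to 13.1 CPM (1.89 ± 0.31, adjusted p = 0.000695). Aass, the first enzyme of lysine breakdown, had 6.08 to 12.6 CPM against 2.13 to 4.49 CPM (1.42 ± 0.24, adjusted p = 0.000821). None of these 3 genes overlapped between groups. Synpo2, an actin-binding protein, was higher by 0.99, Bambi, a decoy receptor of BMP and TGF-β signalling, by 0.85, and the antisense transcript Rap1gapos by 1.12. The strand setting of the counting was not stated, so Rap1gapos may share reads with its partner. Chosen after their values were seen, the adipokine relative C1qtnf1 was higher by 2.64 ± 0.53 (adjusted p = 0.00453), and the axonemal dynein Dnah9 had 18.5 to 22 CPM against 4.20 to 7.90 CPM. The kinetochore genes Knstrn and Ercc6l lay outside the cell division list, so the 175 other genes still held some mitotic ones.

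Other higher calls were lost when certain libraries were left out. Gpx3, a secreted glutathione peroxidase, was higher by 0.86 ± 0.21 (adjusted p = 0.0235), and its call was lost without any 1 of βKlf6KO replicates 1, 5 and 6 and control replicates 1 and 5 (adjusted p up to 0.0618). Cd44, a hyaluronan receptor, was higher by 1.02 ± 0.24 (adjusted p = 0.0170), and its call was lost without control replicates 2 or 3 (adjusted p up to 0.0543). The cell cycle inhibitor Cdkn2c was higher by 0.60 ± 0.16 and the clock repressor Cry1 by 0.37 ± 0.10, each the 1 call of its list of 21 and 17 genes, and they stayed called in 4 and 2 of 12 fits. The hydroxylase Egln3, the 1 call among 15 hypoxia genes, was higher by 1.12 ± 0.28 and stayed called in 7 of 12 fits. Of 22 genes that β cells normally keep silent 2 were higher, the aminotransferase Oat by 0.54 ± 0.15 and the myosin kinase Mylk by 1.37 ± 0.35, with a list median of 0.49, and they stayed called in 3 and 5 of 12 fits. Mylk had 4.45, 0.754, 2.27, 2.02, 1.64 and 5.11 CPM in labelled βKlf6KO replicates 1 to 6 and 0.525 to 1.30 CPM in labelled control libraries. The mean of the list was 2.25, 1.75, 2.63, 2.54, 2.23 and 3.06 log2 CPM in labelled βKlf6KO replicates 1 to 6 and 1.58 to 2.16 in labelled control libraries. Macrophage and B cell genes, given below, were also lowest in βKlf6KO replicates 2 and 5, and their part in these values was not tested.

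**Figure D3:**
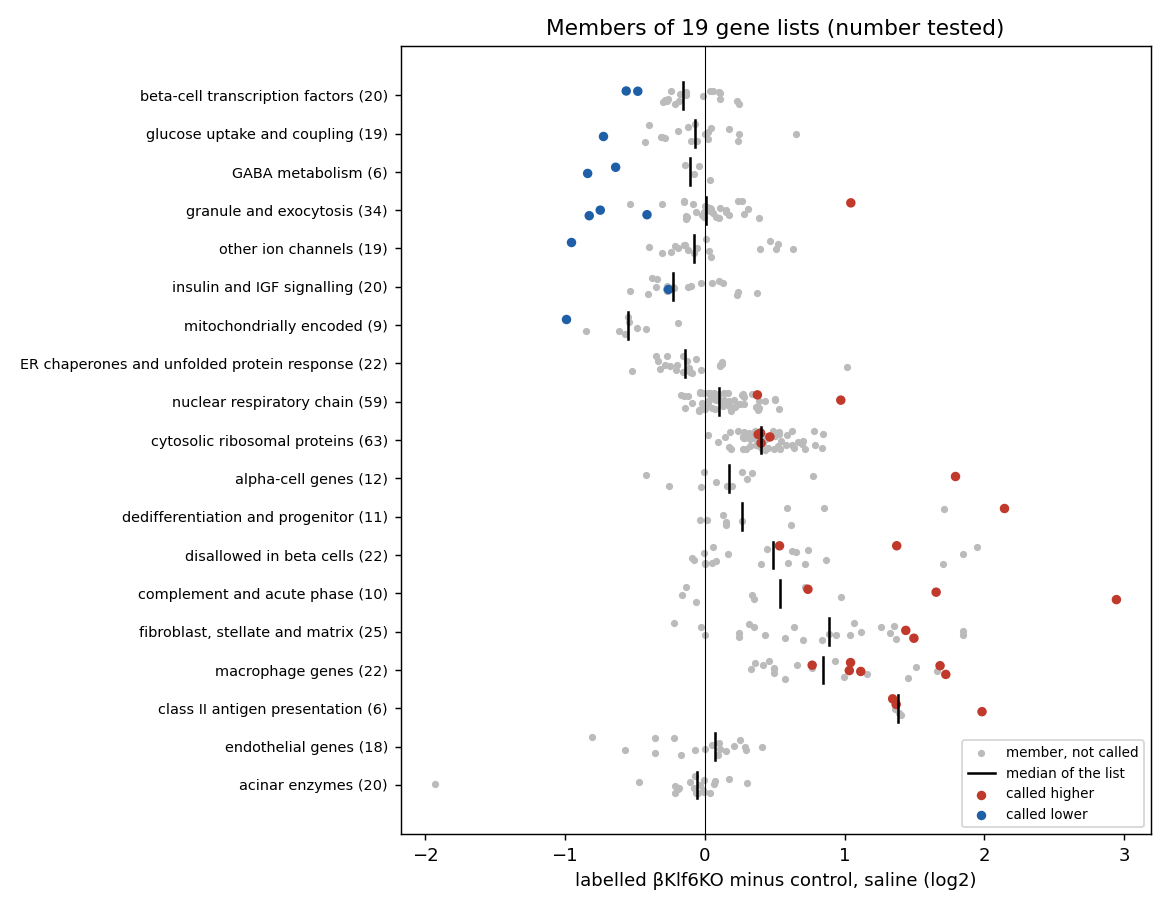
Difference between the labelled groups after saline (log2, labelled βKlf6KO minus control) for the tested members of 19 gene lists, with the number tested in brackets. Points are genes, coloured where called, and black bars are list medians, which run from -0.55 for mitochondrially encoded genes to 1.38 for class II antigen presentation.

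Of the 42 lists other than cell division, 22 held at least 1 call and 20 held none. Among those 20, the neutrophil list had 0 genes tested and could hold no call, and the T and NK cell list had 2. Calls were only lower in 7 lists, only higher in 14 and in both directions in 1, granule and exocytosis. The 20 lists without a call included the KLF family (median 0.01), cholesterol and fatty acid synthesis (0.17), acinar enzymes (-0.06), ductal genes (0.07), endothelial genes (0.08), glycolysis (0.21), ATF4 amino acid response (0.19) and proteasome subunits (0.06). Without control replicate 4 the last 6 of these had medians of -0.18, -0.09, -0.02, -0.06, 0.03 and 0.02. Immediate early genes had a median of 0.35 and 11 of 12 positive differences with no call. All counts and medians stand beside 2.78% of genes called and a median of -0.00050 over all genes.

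Immune cell genes formed the most variable set of higher calls. Of 8 B cell genes tested 2 were called, among them Cd22, of 22 macrophage genes 6, and of 6 class II antigen presentation genes 3. Every tested member of the 3 lists had a positive difference, and the medians were 4.18, 0.85 and 1.38. In bulk RNA, fewer cells of a type and less RNA per cell cannot be told apart. Cd22, an inhibitory receptor of B cells, had 1.87, 0.703, 2.29, 1.65, 0.733 and 5.89 CPM in labelled βKlf6KO replicates 1 to 6. It had 0.653, 0.171, 0.67, 0.194, 0.203 and 0.338 CPM in labelled control replicates 1 to 6, so the groups did not overlap. The difference was 2.40 ± 0.51 (adjusted p = 0.00689, called in all 12 fits). The antibody gene Igha and the lymphoid homing receptor Ccr7, chosen after their values were seen, reached 67.5 and 17.6 CPM in βKlf6KO replicate 6 and were at 1.66 CPM or less in every control library. The lysozyme Lyz2 of myeloid cells, also chosen after its values were seen, had 193, 31.5, 189, 182, 60.0 and 474 CPM in labelled βKlf6KO replicates 1 to 6 and 30.4 to 53.4 CPM in labelled control libraries.

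Apart from Igha in replicate 4, Cd22, Igha, Ccr7 and Lyz2 were high in βKlf6KO replicates 1, 3, 4 and 6. In replicates 2 and 5 they lay within the range of the control libraries or just above it. Igha had 1.02 CPM in βKlf6KO replicate 4, against 1.66 CPM in labelled control replicate 5. The mean level of the 11 listed B cell genes was 2.41, -2.25, 3.02, 2.13, -0.19 and 3.57 log2 CPM in labelled βKlf6KO replicates 1 to 6 and -3.17 to 0.29 in labelled control libraries. That of the 24 macrophage genes was 2.82, 2.14, 3.40, 3.01, 2.16 and 3.74 against 1.62 to 2.14. Summed over members, the B cell genes gave 7.58 to 838 CPM in labelled βKlf6KO libraries and 7.34 to 26.5 CPM in labelled control libraries. In βKlf6KO replicate 5 that sum was 40.3 CPM, above the highest control, and in replicate 2 it was 7.58 CPM. The macrophage genes gave 215 to 890 CPM against 162 to 236 CPM. No macrophage marker was at 0 in any library, while the B cell marker Ms4a1 was at 0 reads in 1 labelled βKlf6KO and 1 labelled control library. Cell division genes did not follow this split, since their mean was 2.33, 2.64, 2.43, 2.61, 2.55 and 2.74 log2 CPM in βKlf6KO replicates 1 to 6 and 0.99 to 1.74 in labelled control libraries. Mki67 was highest, at 28.4 CPM, in βKlf6KO replicate 2, the library with the lowest B cell mean of its group. Of the 175 other higher genes 61 (34.9%) had replicates 2 and 5 as the lowest pair of the 6 βKlf6KO libraries. This held for 3 of 109 cell division calls (2.75%), for 2 of 94 lower calls (2.13%) and for 9.32% of all genes, a pattern described after the values were seen.

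**Figure D4:**
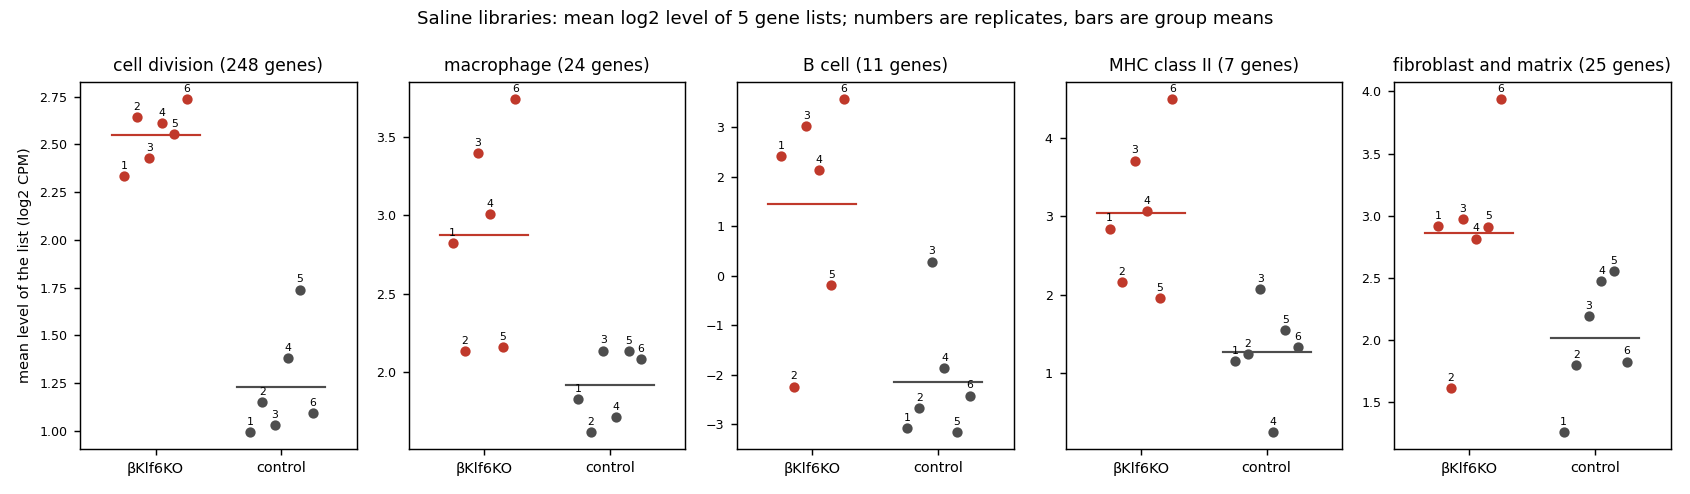
Mean log2 CPM of the members of 5 gene lists in the 6 labelled βKlf6KO and 6 labelled control saline libraries. Points are libraries with their replicate number and bars are group means. Replicates 2 and 5 of the βKlf6KO group lie with the other βKlf6KO libraries for cell division. For macrophage and B cell genes they lie within the range of the controls or just above it.

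In βKlf6KO replicates 2 and 5 the lower genes lay below the controls in some cases and not in others. Papss2 stood at 548 and 525.9 CPM there, and Aldh5a1 at 71.9 and 88.5 CPM, all below the lowest control. For Slc2a2 those libraries had 778 and 606 CPM, also below the lowest control of 923. For Nkx6-1 and Tshz1 replicate 2, at 160 and 98.5 CPM, lay above the lowest control, at 148 and 83.2 CPM. Replicates 2 and 5 were the highest pair of the 6 βKlf6KO libraries, and so nearest to the controls, for 16 of the 94 lower genes (17.0%), against 6.39% of all genes. A fit with macrophage and lymphocyte list means as covariates left 9 calls in all, of which 1 was lower, Mxra7, and 8 were higher. The median difference of the 94 lower genes was -0.30 in that fit instead of -0.47, and its median SE was 0.13 instead of 0.11. Gc, Chil6 and Aass were among the 9. The covariates themselves differed between the labelled groups. Over tested members the macrophage mean was 2.44 to 3.98 log2 CPM in labelled βKlf6KO libraries and 1.92 to 2.47 in labelled control libraries. The label and the immune cell genes therefore cannot be told apart in this fit, and whether those genes have a part in the lower calls was not tested.

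Some stromal and complement genes were also called higher. Of 25 fibroblast, stellate and matrix genes 23 had a positive difference with a median of 0.89, and the collagens Col3a1 and Col1a2 were called. Col3a1 had 19.7, 8.60, 24.5, 17.4, 21.1 and 45.6 CPM in labelled βKlf6KO replicates 1 to 6 and 3.71, 5.60, 11.1, 13.5, 8.75 and 6.47 CPM in labelled control replicates 1 to 6. It differed by 1.44 ± 0.36 (adjusted p = 0.0253), and its groups overlapped through βKlf6KO replicate 2. The call was lost without any 1 of βKlf6KO replicates 3 and 6 and control replicates 1, 2 and 6 (adjusted p up to 0.0928). Of 10 complement and acute phase genes 3 were higher, C3, C1ra and the row that GENCODE assigns to C4b. C3 had 5.69 to 46.2 CPM in labelled βKlf6KO libraries and 3.49 to 11.7 CPM in labelled control libraries. Its call was lost without any 1 of βKlf6KO replicates 3, 4 and 6 and control replicates 1 and 2 (adjusted p up to 0.0862). The endothelial markers did not move together. Pecam1 had 17.1 to 29.2 CPM against 15.1 to 27.3 CPM, and Cdh5 had medians of 14.36 and 14.33 CPM. Kdr had 30.71 to 52.73 CPM, with a median of 34.8, in labelled βKlf6KO libraries. In labelled control libraries it had 36.54 to 78.26 CPM, with a median of 59.39, so the groups overlapped. Of the 18 endothelial genes tested 11 had a positive and 7 a negative difference, and none was called. The BMP antagonist Grem1 had 12.4, 0.141, 4.16, 1.74, 0.733 and 6.66 CPM in βKlf6KO replicates 1 to 6 and at most 0.224 CPM in a control library.

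The S961 mice shared no library with the saline mice. Both differences came from 1 fit with 1 estimate of the spread per gene over all 28 libraries, so calls in both are not independent. Among them, labelled control S961 replicates 4 and 6 stood apart from the other labelled controls. They lay on the labelled βKlf6KO side of the midpoint between the saline group means for 94.5% and 92.7% of the 109 cell division calls, 86.3% and 61.7% of the 175 other higher calls and 61.7% and 64.9% of the 94 lower calls. The 8 labelled βKlf6KO S961 libraries did so for 58.7% to 96.3%, 62.3% to 89.7% and 63.8% to 95.7%. The other 6 labelled control S961 libraries did so for 0.917% to 19.3%, 6.86% to 19.4% and 2.13% to 24.5%. The dynein Dnah9 was at 13.5 to 33.2 CPM in the labelled βKlf6KO S961 libraries and at 27.8 and 31.7 CPM in control replicates 4 and 6, against 3.56 to 8.93 CPM in the other 6 controls. The unannotated gene Gm9195 (chosen after its values were seen) showed the same split. It was at 0.473 to 2.26 CPM in labelled βKlf6KO saline libraries and 0.309 to 2.66 CPM in labelled βKlf6KO S961 libraries. In controls it was at 0.0922 CPM or less after saline, at 0.362 and 1.43 CPM in S961 replicates 4 and 6, and at 0.0176 CPM or less in the other 6.

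**Figure D5:**
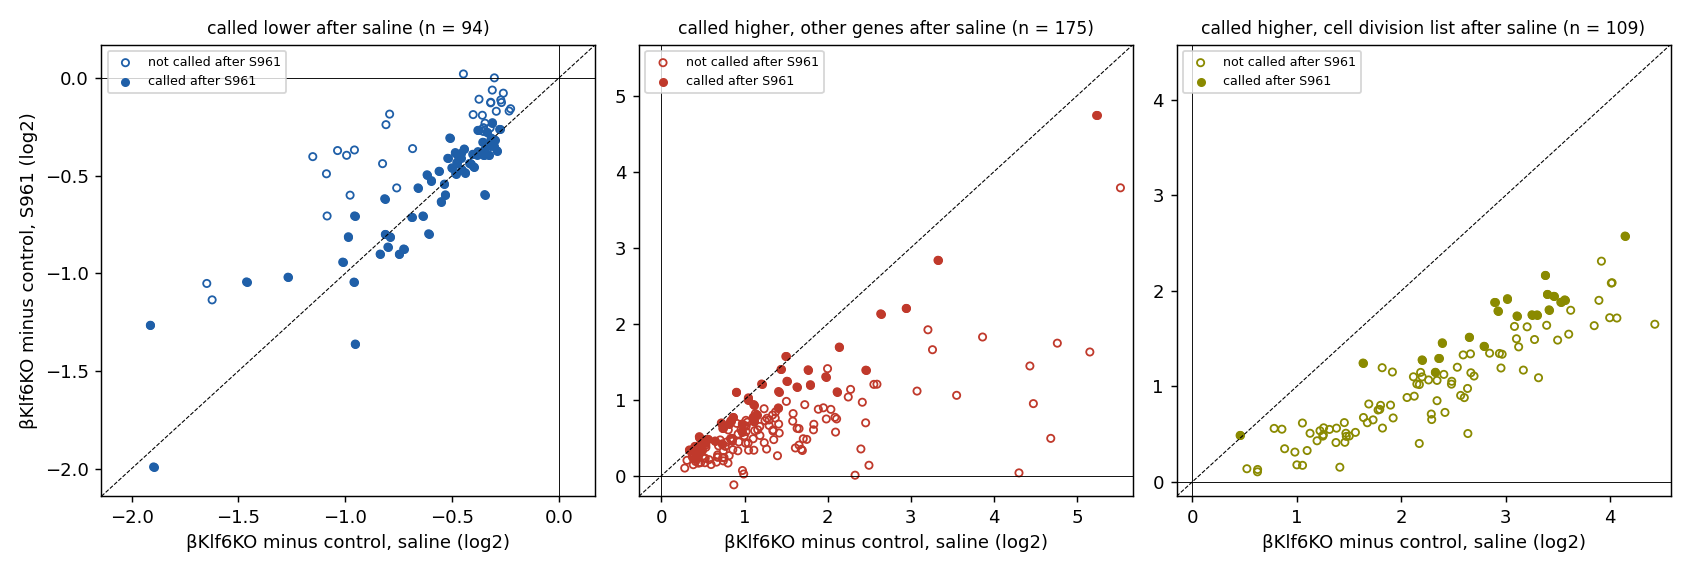
Difference between labelled βKlf6KO and control islets after saline (x axis) and after S961 (y axis), in log2, for the genes called after saline. The panels hold the 94 lower genes, the 175 higher genes outside the cell division list and the 109 cell division genes. Filled points were also called after S961, and the dashed line marks equal differences. Lower genes lie near the line and most higher genes below it.

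With all libraries kept, 128 of the 378 saline calls were also called in the same direction after S961 and none in the opposite direction. That is 33.9% of the saline calls and 21.6% of the 593 calls after S961, when 4.36% of all genes were called, 2.35% higher and 2.01% lower. Of the 94, 60 (63.8%) were called lower after S961, and 92 had the same sign, against 81.7% of all genes. Of the 175 other higher genes 47 (26.9%) were called again, and of the 109 cell division genes 21 (19.3%). The median difference of the lower genes was -0.47 after saline and -0.40 after S961, that of the other higher genes 1.10 and 0.56, and that of the cell division genes 2.34 and 1.07. Without labelled control S961 replicates 4 and 6 the fit called 505 genes after saline and 1113 (8.19% of all genes) after S961, with 342 shared. Of the 378 saline calls above, 255 were then called in the same direction after S961, among them 74 lower, 92 other higher and 89 cell division genes. Those libraries were left out after their values were seen, so these counts are no independent support.

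Some of the genes described above, given here as examples, had like differences in both sets of mice. Slc2a2 differed by -0.73 ± 0.19 after saline and -0.88 ± 0.17 after S961 (adjusted p = 0.00611), Papss2 by -0.80 ± 0.19 and -0.87 ± 0.16 (adjusted p = 0.00611), Sytl4 by -0.75 ± 0.19 and -0.90 ± 0.16 (adjusted p = 0.00511) and Aldh5a1 by -0.84 ± 0.19 and -0.90 ± 0.17 (adjusted p = 0.00529). Chgb was higher by 1.04 ± 0.26 and 1.0 ± 0.23 (adjusted p = 0.0174) and Zfas1 by 1.2 ± 0.23 and 1.21 ± 0.20 (adjusted p = 0.00426). Other genes had smaller values after S961. Mxra7 had -0.96 ± 0.14 and -0.37 ± 0.12 (adjusted p = 0.0734), Sowahb -0.45 ± 0.10 and 0.02 (adjusted p = 0.891), and Synpo2 0.99 ± 0.16 and 0.02 (adjusted p = 0.923). The test of the difference between the 2 labelled genotype differences called 0 genes with limma, with 350 genes (2.58%) at an unadjusted p below 0.05 and a smallest adjusted p of 0.99999. No gene is therefore called as differing between saline and S961.

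By position in the genome, the share of genes called ran from 1.67% on chromosome 12 to 3.58% on chromosome 1. Within 10 Mb of Ins1 on chromosome 19, where the Cre allele lies, 4 of 119 genes were called (3.36%), among them Cnnm1 (lower), Hspa12a (lower) and, chosen after its values were seen, Gsto2 (higher). Within 10 Mb of Klf6 on chromosome 13, 2 of 40 genes were called (5%), Pitrm1 and Chrm3, both lower. The mixed strain background of the mice could also differ near these loci, which was not tested. Sequencing lane, a possible batch, held libraries of both groups in lanes 4, 5, 6 and 7. All 94 lower genes had a negative difference within each of the 4 lanes. For the 57 lower genes without overlap between groups this was fixed by the choice of genes, and for the others it follows in part from it. It is therefore a description and no test of a lane effect. With lane as a covariate there were 287 higher and 110 lower calls.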

How the data were processed

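The authors deposited 1 table of log2 CPM values for 14219 genes in 28 libraries. Per the labels' protocols, libraries were stranded poly(A) RNA, sequenced from 1 end. Per the submitters' processing notes, STAR 2.5.3a, HTSeq 0.9.1, edgeR and build GRCm38 were used, and the strand setting of the counting was not stated. Whole reads were recovered from the deposited log2 values (100% of values within 0.05 reads), which gave the depths. The filter was 1 CPM or more in 6 or more libraries, which 13591 genes passed and 628 did not. limma 3.58.1 (R 4.3.3, with a mean-variance trend) was fitted to all 28 libraries with 4 group means, and p-values were adjusted over all genes tested. The script was tested on simulated data. Differences are labelled βKlf6KO minus control. Klf6 and the Ins1 to Ins2 ratio were tested by exact permutation over 924 arrangements. The 43 gene lists were chosen with earlier results of these data known. Named genes were Klf6, Ins1 and Ins2. To these were added up to 3 called genes per list by smallest p (or the top 1 where none was called), 14 called genes outside the lists in each direction with at least 4 CPM, and 6 with the largest difference at 100 CPM or more. Others are marked as chosen after their values were seen. GENCODE M21 gave coordinates for 14210 genes. Each library came from 1 mouse. Leaving out labelled control S961 replicates 4 and 6 was an alternative chosen after seeing the data, and the remaining alternatives are in the closing section.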

Additional observations from a re-analysis of the deposited data

Results flagged for a closer look

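In 19 of 194 sets of 6 saline libraries of 1 group, the highest or lowest library stood apart from the others by a gap test on the log2 values (Dixon's test at the 95% level), which chance alone gives in about 1 of 20 sets. No explanation was tested. Labelled control replicate 4 was low for Ins2 (13.16 log2 CPM, the others 15.73 to 16.67), Ssr4 (6.89, the others 7.93 to 8.27), Chgb (10.65, the others 11.00 to 11.16), Ndufa1 (5.31, the others 5.69 to 5.77) and Tap1 (2.19, the others 3.0 to 3.37). Labelled βKlf6KO replicate 6 was low for Gc (9.27, the others 9.67 to 9.84), Sowahb (2.62, the others 2.94 to 3.07) and Klf9 (5.25, the others 5.40 to 5.49) and high for Zfas1 (5.09, the others 4.66 to 4.81). Labelled βKlf6KO replicate 2 was high for Pard3 (5.42, the others 5.13 to 5.22), Tshz1 (6.62, the others 5.95 to 6.20) and Foxo3 (6.05, the others 5.63 to 5.72) and low for Eef1b2 (8.89, the others 9.04 to 9.10). Labelled βKlf6KO replicate 4 was low for Rap1gapos (1.75, the others 2.06 to 2.24). Ins1 relative to Ins2 was lowest, with a log2 ratio of -1.81, in labelled βKlf6KO replicate 1 (the others -1.26 to -1.05). Labelled control replicate 5 was high for the C4b row, LOC102643089 (3.49, the others -0.94 to 0.50), and for Zfas1 (4.10, the others 3.43 to 3.59). Labelled control replicate 3 was high for Egln3 (0.96, the others -0.19 to 0.13), and labelled control replicate 1 was low for Col1a2 (0.74, the others 1.98 to 2.71).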

How the results depend on the processing

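The count of genes called depended on the setting, and the cause was not tested. Against 378 calls (284 higher with 175 outside cell division, and 94 lower, with 128 shared with S961), GC correction gave 1371 calls (785 higher with 631 outside cell division, 586 lower, 765 shared). The first principal component as a covariate gave 2821 (1227, 1065, 1594 and 1628 shared), and library weights gave 3018 (1564, 1388, 1454 and 401 shared), with 176 cell division calls in place of 109. Leaving out the 3 libraries farthest out on that component gave 690 (465, 335, 225 and 211 shared). A filter at 5 CPM gave 117 (78, 54, 39 and 60 shared), with 24 cell division calls. Macrophage and lymphocyte means as covariates gave 9 (8, 4, 1 and 0 shared), with 4 cell division calls. Lower calls were 52 with median centring and 144 in a fit of the 12 saline libraries alone, which gave no S961 value, and shared calls were 79 after quantile normalization. Without labelled control S961 replicates 4 and 6, an alternative chosen after seeing the data, shared calls were 342. With 1 saline library left out at a time, calls ran from 214 to 514, with 178 to 395 higher, 78 to 288 of them outside cell division, 34 to 119 lower and 55 to 156 shared. In all 12 of these fits 176 genes were called, of which 27 were lower, 55 higher outside cell division and 94 in the cell division list. The replicate block gave 354 calls (280 higher and 74 lower), and same-numbered libraries did not deviate together (correlations -0.54 to 0.46), so the numbers are no pairing. The Klf6 difference of -0.03 became 0.087 after quantile normalization, 0.063 within lanes, 0.10 with GC correction, with the first component or without the 3 libraries, and 0.21 with library weights, and ran from -0.16 to 0.10 with 1 library left out (0.02 and 0.0033 without labelled βKlf6KO replicates 1 and 5, 0.10 without control replicate 4). Ins2, at 0.21, became -0.36 with the first component, -0.54 with immune means, -0.32 with library weights, and -0.32 without the 3 libraries, and ran from -0.32 (without control replicate 4) to 0.38 with 1 library left out. With immune means Lyz2 became -0.00676, Itgb2 -0.12, Tap1 -0.14 and Ngfr -0.43. Depth limits genes near the floor, where the control libraries hold 3 reads or fewer.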

Other observations

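Lists without a call, apart from the neutrophil list, were each represented by the gene with the smallest p. For Esm1 and Maob, as for Iapp and Klf9, the groups did not overlap after saline. Esm1, a proteoglycan secreted by endothelial cells, had 40.0 to 63.0 CPM in labelled βKlf6KO libraries and 63.2 to 144 CPM in labelled control libraries (-0.80 ± 0.23, SE, limma adjusted p = 0.0608). Maob, a monoamine oxidase of the mitochondrial membrane, had 217 to 356 CPM against 382 to 692 CPM (-0.72 ± 0.22, adjusted p = 0.0798), and in the S961 mice it was called lower (-0.78 ± 0.19, adjusted p = 0.0260). Reg3a, a secreted lectin of the Reg family, ran from 32.2 to 391.9 CPM in labelled βKlf6KO libraries and from 8.90 to 283 CPM in labelled control libraries after saline (1.70 ± 0.70, adjusted p = 0.223), and it was called higher after S961 (2.37 ± 0.60, adjusted p = 0.0293). Spp1, osteopontin, had 0.45 ± 0.24 after saline (adjusted p = 0.406) and 1.16 ± 0.21 after S961 (adjusted p = 0.00502). The test of the difference between saline and S961 called none of these genes.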
